A study of Mus musculus with 18 samples.

Results

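Colon crypts of 2 mouse lines that lose Olfr78 in different ways were compared to find the transcripts that differ from controls in the same direction in both. The comparison used 12 of the 18 libraries of the series, each from 1 mouse: in the Olfr78-GFP line 2 mice were WT and 5 were KO, and in the Vil1Cre/Olfr78fx line 3 were eControl and 2 were eKO. Of the 52636 genes in the joined tables, 16447 reached at least 40 RP20M (reads of the gene scaled to 20000000 per library, so that 40 equals 2 CPM) in at least 2 of the 12 libraries and were tested. KO mice of the Olfr78-GFP line carry, on both alleles, a reporter cassette (GFP-IRES-tauLacZ) that replaces the coding exon, so Olfr78 is lost in every tissue. In eKO mice a Vil1-cre transgene, driven by the Villin promoter that is active in intestinal epithelium, removes the floxed coding exon, so the loss is meant to be epithelial. The eControl mice carried either Vil1-cre without the floxed allele (genotype label HE/WT, eControl 1 and 3) or the homozygous floxed allele without Vil1-cre (label WT/HO, eControl 2). In these labels the first term was read as Vil1-cre and the second as the floxed allele. The crypts came from whole colon and the labels describe them as all epithelium, and the ages of these mice are not given.

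Olfr78 is an odorant receptor, a G protein-coupled receptor that responds to short-chain fatty acids such as acetate and propionate made by the gut microbiota. In the colon it is found in enteroendocrine cells, the scattered hormone-secreting cells of the epithelium. A crypt holds these cells among many more stem cells, dividing progenitors, colonocytes and goblet cells, so a transcript of a whole crypt library mostly reports cells that do not carry the receptor, and fewer cells of a type cannot be told apart from less RNA per cell.

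Olfr78 itself was measured first. It stood at 88 and 111 RP20M in WT crypts and at 42, 23, 27, 28 and 7 RP20M in KO crypts of mice 1 to 5. In the other line it stood at 105, 61 and 124 RP20M in eControl crypts, at 21 RP20M in the library labelled eKO 1 and at 73 RP20M in the library labelled eKO 2. All KO values were below both WT values, whereas the library labelled eKO 2 lay among the eControl values. That library also carries the genotype label WT/HO, the label of eControl 2, while eKO 1 carries HE/HO. It was kept in the group its title gives, and results are stated with and without it. The tables count reads over the whole gene, so reads from exons outside the deleted part are included in these values. In the joint fit, with the line as a covariate, Olfr78 differed by -1.40 ± 0.32 on the log2 scale (SE), which did not pass the test (adjusted p = 0.496, limma). Without the library labelled eKO 2 the difference was -1.72 with an adjusted p of 0.0984, and without eKO 1 it was -1.23 with an adjusted p of 0.0669.

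The eKO libraries stood apart from each other. Set against the mean of the eControl libraries, the library labelled eKO 2 moved in the direction of the Olfr78-GFP line for 64.4% of the genes, and eKO 1 for 34.6%. The libraries labelled eKO 1 and eKO 2 lay on the same side of the eControl mean for only 38.2% of genes. Of the 270 genes that were beyond 1.5-fold in the Olfr78-GFP line and in each eKO library, 218 were higher in KO, lower in eKO 1 and higher in eKO 2. A further 18 were lower in all 3, and 5 were higher in all 3. Nuclear-retained RNAs are given beside this split. Neat1, the long non-coding RNA of paraspeckles, stood at 23650 and 15866 RP20M in WT, at 52261, 74335, 68096, 58764 and 52908 RP20M in KO, at 26756, 35358 and 38710 RP20M in eControl, at 26350 RP20M in eKO 1 and at 43619 RP20M in eKO 2. The KO values and that of eKO 2 were thus each above their controls, and that of eKO 1 was below. Malat1, another nuclear long non-coding RNA, stood at 126680 and 116299 RP20M in WT, 183998 to 249478 RP20M in KO, 85263, 163938 and 188499 RP20M in eControl, 110685 RP20M in eKO 1 and 173471 RP20M in eKO 2. For Malat1 KO lay above WT, but both eKO libraries lay within the eControl values. Long non-coding genes, including the provisional TEC class, took 6.22% and 6.49% of the WT libraries and 7.52% to 8.18% of the KO libraries, against 6.60% to 7.24% in eControl, 6.73% in eKO 1 and 6.87% in eKO 2, so KO lay above WT and both eKO libraries lay within eControl. Mitochondrially encoded RNA took 3.88% of the library labelled eKO 2 and 5.82% to 11.01% of the other 11 libraries. The part of these RNAs in the results was not tested.

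**Figure D1:**
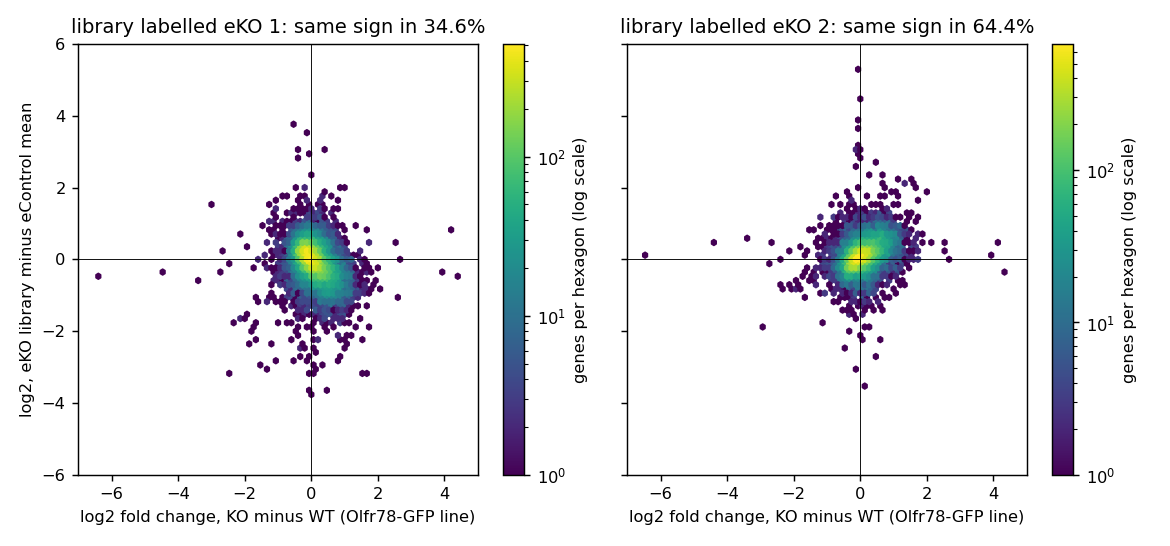
Hexagons count the 16447 genes tested. The x axis is the log2 fold change of KO over WT crypts in the Olfr78-GFP line and the y axis the log2 difference of 1 eKO library from the mean of the 3 eControl libraries, eKO 1 on the left and eKO 2 on the right. The cloud slopes down for eKO 1 (34.6% of genes with the same sign) and up for eKO 2 (64.4%).

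In the joint fit 4 of 16447 genes (0.0243%) passed an adjusted p of at most 0.2 and a 1.5-fold difference. Mpp6, 9130204K15Rik and Papss2 were lower (0.0182% of genes called lower) and Nid2 was higher (0.00608%) in KO and eKO crypts, grouped by title. These 4 genes had the same adjusted p of 0.135 (limma), and none passed 0.05. At an unadjusted p under 0.05 there were 1267 genes (7.70%), 822 higher and 445 lower. All 4 were among the 634 genes (3.85%) called for the Olfr78-GFP line in the fit with 4 groups. That is no separate support, since the libraries of that line are part of the joint fit. None of the 4 was called in the Vil1Cre/Olfr78fx line. The 4 calls rest on most of the libraries. Leaving out WT 1, WT 2, KO 1, KO 2, KO 3, KO 4 or eControl 2 left none of the 4 called, whereas leaving out KO 5, eControl 3, eKO 1 or eKO 2 kept all 4. Without eControl 1, 3 of the 4 remained.

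Mpp6, a membrane-associated guanylate kinase of the p55 family that scaffolds proteins at cell junctions, had close to the same ratio in both lines. It stood at 2698 and 4409 RP20M in WT and at 1343, 1863, 1816, 1303 and 2135 RP20M in KO crypts. In the other line it stood at 4161, 4302 and 2710 RP20M in eControl, 1541 RP20M in eKO 1 and 1976 RP20M in eKO 2. Every KO and eKO library lay below every WT and eControl library. That includes eKO 2, grouped by its title, whose genotype label is that of eControl 2 and whose Olfr78 level lay among the eControl values. The log2 fold change was -1.05 ± 0.17 in the joint fit (SE, n = 7 and 5, limma adjusted p = 0.135), -1.05 ± 0.24 in the Olfr78-GFP line and -1.06 ± 0.26 in the Vil1Cre/Olfr78fx line. The difference between the lines was -0.01 ± 0.35. Without the library labelled eKO 2 the joint change was -1.11, and without eKO 1 it was -0.99. Mpp6 lies on chromosome 6 (GRCm38, 50110241 to 50198939, plus strand), and its annotation overlaps that of Gsdme, listed in the tables as Dfna5, on the other strand. Dfna5 stood at 1231 and 1818 RP20M in WT, 857 to 1215 RP20M in KO, 1278 to 1737 RP20M in eControl, and 805 and 1206 RP20M in eKO 1 and 2. Its values were lower than those of the controls of the same line in every KO and eKO library. Since strand-specific counting is not stated, reads of the overlapping pair cannot be told apart where their exons overlap.

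Papss2, the enzyme that makes the sulfate donor PAPS used to sulfate mucins, proteoglycans and hormones, was the most abundant of the 4. It stood at 16409 and 24498 RP20M in WT and at 9538, 10588, 10910, 10106 and 13028 RP20M in KO crypts. In the other line it stood at 17294, 18917 and 16262 RP20M in eControl, 10954 RP20M in eKO 1 and 13262 RP20M in eKO 2. No KO or eKO library, eKO 2 being grouped by its title, reached the lowest control of either line. The log2 fold change was -0.73 ± 0.13 in the joint fit (SE, limma adjusted p = 0.135), -0.90 ± 0.16 in the Olfr78-GFP line and -0.53 ± 0.18 in the Vil1Cre/Olfr78fx line. Mean levels in KO were 0.530 of those in WT, and in eKO 0.692 of those in eControl. Papss2 lies on chromosome 19 (GRCm38, 32595790 to 32667187, plus strand), with no other gene annotated over it.

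The sequences upstream of Mpp6 and Papss2 are shown because both genes were called lower in the joint fit. Each is the 250 bases before the RefSeq start nearest the gene's annotated start, written 5′ to 3′ (GRCm38.p6, plus strand, chr6:50109991-50110240 and chr19:32595465-32595714), and Nid2 and 9130204K15Rik had no entry. Capitals mark the GC box, GGGCGG or its reverse complement CCGCCC.
Mpp6: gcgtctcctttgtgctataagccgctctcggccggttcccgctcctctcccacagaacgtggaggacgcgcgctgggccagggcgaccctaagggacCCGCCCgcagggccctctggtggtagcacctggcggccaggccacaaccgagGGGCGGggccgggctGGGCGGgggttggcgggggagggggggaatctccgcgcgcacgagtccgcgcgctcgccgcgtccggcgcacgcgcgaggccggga
Papss2: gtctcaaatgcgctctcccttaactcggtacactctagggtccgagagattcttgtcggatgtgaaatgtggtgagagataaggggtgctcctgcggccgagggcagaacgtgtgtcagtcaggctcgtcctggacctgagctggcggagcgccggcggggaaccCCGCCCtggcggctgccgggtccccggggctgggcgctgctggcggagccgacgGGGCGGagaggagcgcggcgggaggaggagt
Mpp6 had 3 GC boxes in this window and Papss2 had 2, and 32.7% of the 32851 promoter windows of the reference held at least 1. The windows were 75.6% and 67.6% G and C, against a median of 52.4%. Neither window held the cAMP response element TGACGTCA or its core TGACG on either strand, letters found in 1.55% and 17.8% of all windows.

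9130204K15Rik, a long intergenic non-coding RNA on chromosome 11 (GRCm38, 79781979 to 79872394, minus strand), had the largest fold of the 4. It stood at 112 and 163 RP20M in WT and at 14, 33, 27, 21 and 53 RP20M in KO crypts. In the other line it stood at 240, 161 and 109 RP20M in eControl, 46 RP20M in eKO 1 and 84 RP20M in eKO 2. The groups did not overlap in either line. The log2 fold change was -1.63 ± 0.28 in the joint fit (SE, limma adjusted p = 0.135), -1.95 ± 0.37 in the Olfr78-GFP line and -1.25 ± 0.41 in the Vil1Cre/Olfr78fx line. The gene is low, with means of 137.5 RP20M in WT and 29.6 RP20M in KO, where 1 read was worth 1.82 to 3.24 RP20M.

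Nid2, nidogen-2, a basement membrane glycoprotein that links laminin to collagen IV, was the gene that rose. It stood at 86 and 77 RP20M in WT and at 133, 175, 157, 173 and 139 RP20M in KO crypts. In the other line it stood at 136, 126 and 131 RP20M in eControl, 184 RP20M in eKO 1 and 230 RP20M in eKO 2. The groups did not overlap within a line, but the eControl values lay at or near the lowest KO values, so the separation holds only once the line is taken into account. The log2 fold change was 0.74 ± 0.13 in the joint fit (SE, limma adjusted p = 0.135), 0.85 ± 0.17 in the Olfr78-GFP line and 0.61 ± 0.19 in the Vil1Cre/Olfr78fx line. Nid2 lies on chromosome 14 (GRCm38, 19751265 to 19811787, plus strand) and overlaps 2700060E02Rik (Rtraf) on the other strand. That neighbour stood at 2205 and 2164 RP20M in WT, 1693 to 2088 RP20M in KO, 2264 to 2713 RP20M in eControl, and 2890 and 2030 RP20M in eKO 1 and 2, so it went the other way from Nid2 in KO and in eKO 2.

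Rpl35a, a protein of the large ribosomal subunit, had the smallest p of all genes in the joint fit (1.14e-05, adjusted p = 0.135, limma) but a fold under the threshold. Named after its values were seen, it stood at 2421 and 2286 RP20M in WT, at 1748, 1620, 1818, 1929 and 1687 RP20M in KO, at 2491, 2565 and 2392 RP20M in eControl, and at 1763 and 1507 RP20M in eKO 1 and 2. The KO and eKO libraries, eKO 2 being grouped by its title, were all below the controls of either line. Its log2 fold change was -0.50 ± 0.08 (SE), with -0.42 in the Olfr78-GFP line and -0.60 in the Vil1Cre/Olfr78fx line.

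**Figure D2:**
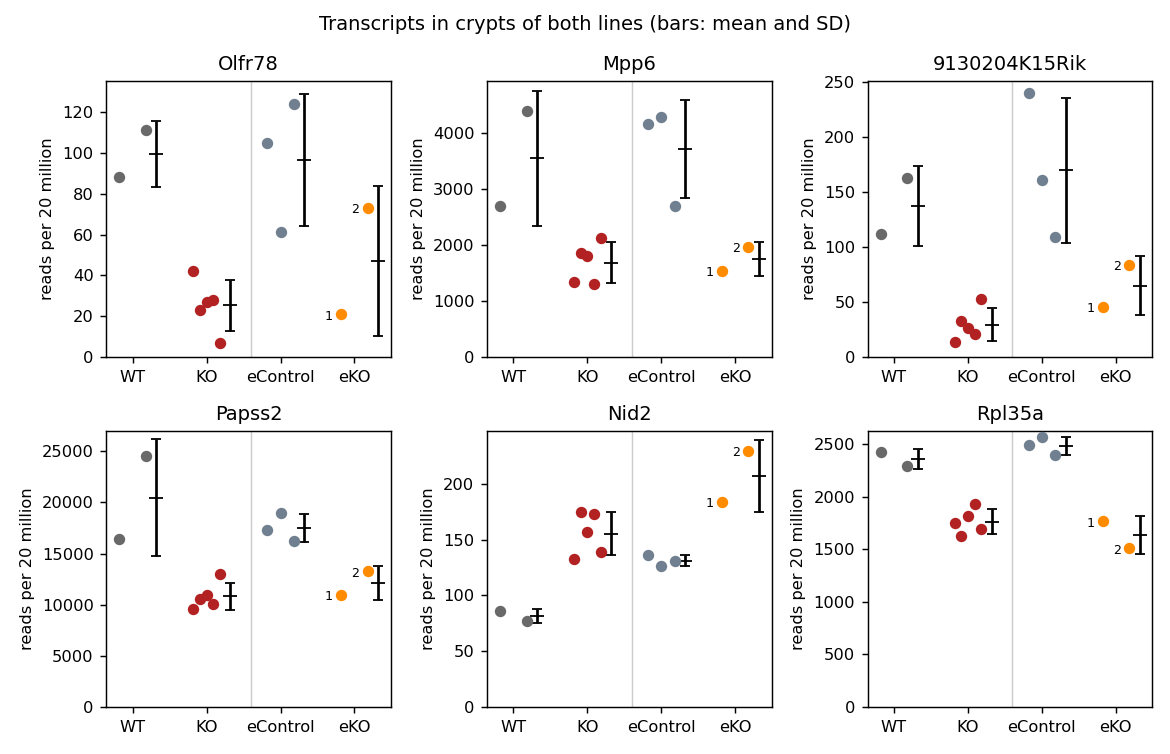
Points are libraries, 1 mouse each, in RP20M on the y axis, for Olfr78, the 4 genes called in the joint fit and Rpl35a. Black bars are the mean and SD of each group, the vertical line divides the lines, and the numbers 1 and 2 mark eKO 1 and eKO 2. For Mpp6, Papss2, 9130204K15Rik and Rpl35a the KO and eKO points sit below the WT and eControl points. For Nid2 they sit above the controls of their own line, and for Olfr78 the library labelled eKO 2 (73 RP20M) sits above the lowest eControl value (61 RP20M).

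Levels of these genes in the sorted cells of the series are given as a description. In the GFP+ve pools GFP marks cells in which the Olfr78 locus is active. The coding exon is replaced on 1 allele in the HE pools and on both in the KO pools. The Epcam+ve cells came from a WT mouse, which has no GFP allele, so cells with an active Olfr78 locus were not set apart there. Papss2 stood at 17118 and 16776 RP20M in the WT Epcam+ve cells, at 7284 and 2427 RP20M in GFP+ve HE pools and at 1690 and 7658 RP20M in GFP+ve KO pools. Both Epcam+ve values were above all 4 GFP+ve pools. Mpp6 stood at 2718 and 2538 RP20M in Epcam+ve cells, 2221 and 2521 RP20M in HE pools and 1728 and 1232 RP20M in KO pools, so both kinds of cell held it. Nid2 was at 52 and 108 RP20M in Epcam+ve cells and between 24 and 76 RP20M in the pools, which rests on 2 to 12 reads a library. These libraries were not part of the joint fit, both Epcam+ve samples come from 1 mouse, and no test was made on them.

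Across all 16447 genes the lines did not move together. The sign was the same in both lines for 7531 genes (45.8%), 4590 of them higher and 2941 lower, and Pearson's r of the log2 fold changes was -0.06 and Spearman's rho -0.10, as a description across genes that share libraries. Without eKO 1 the sign was the same for 64.4% of genes and without the library labelled eKO 2 for 34.6%. Beyond 1.5-fold, 35 genes (0.213%) were higher in both lines and 36 (0.219%) lower in both, while 49 (0.298%) were higher in KO and lower in eKO and 25 (0.152%) the reverse. For the Olfr78-GFP line, in the fit with 4 groups, 634 genes (3.85%) were called, 503 higher (3.06%) and 131 lower (0.796%). In the Vil1Cre/Olfr78fx line 0 of 16447 genes were called by limma and 0 by edgeR on the recovered reads, with 384 (2.33%) at an unadjusted p under 0.05 in limma. Of the 634 genes, 292 (46.1%) had the same sign in the other line, close to the share over all genes, and 21 (3.31%) were beyond 1.5-fold in the same direction there. The difference between the lines passed the same threshold for 5 genes (0.0304%, limma, with 1442 or 8.77% at an unadjusted p under 0.05), all within 3332 kb of Olfr78 on chromosome 7 and all low in KO crypts of the Olfr78-GFP line.

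**Figure D3:**
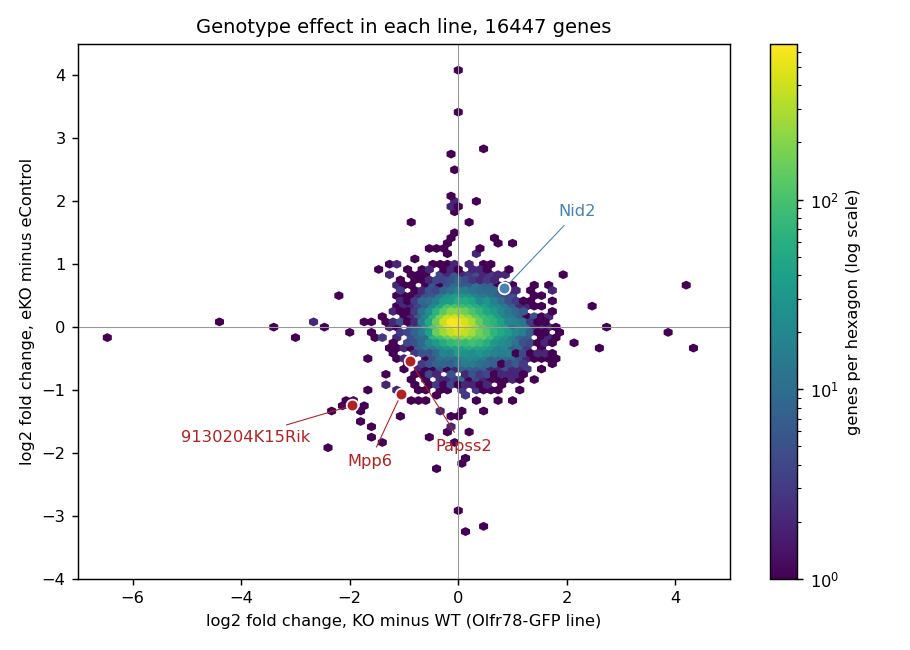
Hexagons count genes by their log2 fold change in the Olfr78-GFP line (x axis, KO minus WT) and in the Vil1Cre/Olfr78fx line (y axis, eKO minus eControl), over the 16447 genes tested. The 4 called genes are drawn as points. The same sign was held by 45.8% of genes, and Mpp6, 9130204K15Rik and Papss2 lie toward the lower left of the cloud and Nid2 toward the upper right.

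The number of genes called in the joint fit depended on which eKO library was used. Without eKO 1, 1134 genes were called, 1008 higher and 126 lower, and 1088 of them agreed in sign in both lines. Without the library labelled eKO 2, 32 genes were called, 3 higher and 29 lower. All 4 genes above were among both sets. Olfr78, Mpst, Cps1, Slc37a2 and Hspa1b were called lower in both sets as well, and so were Gm8979, Trim12a, Trim30d and AC123830.1. With all 12 libraries the last-named genes changed by -6.40, -4.40, -3.39 and -2.67 (log2) in the Olfr78-GFP line. In the Vil1Cre/Olfr78fx line they changed by -0.15, 0.04, -0.01 and 0.05, so a joint call can rest on 1 line. Lgr5 and Fgfr2 were called lower without the library labelled eKO 2 but not without eKO 1. Cps1, carbamoyl-phosphate synthase of the urea cycle, had a joint log2 difference of -1.59 without the library labelled eKO 2 and -0.66 without eKO 1 (limma adjusted p = 0.0977 and 0.180). Its levels were 1241 and 1478 RP20M in WT, 330 to 775 RP20M in KO, 889, 1567 and 1117 RP20M in eControl, 220 RP20M in eKO 1 and 1472 RP20M in eKO 2. With the library labelled eKO 2 grouped by its genotype label instead, 33 genes were called, 31 of them lower, and 3 of the 4 genes above stayed called. Each of these fits leaves 1 eKO library to stand for its group, and that library was assumed to vary like the others.

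**Figure D4:**
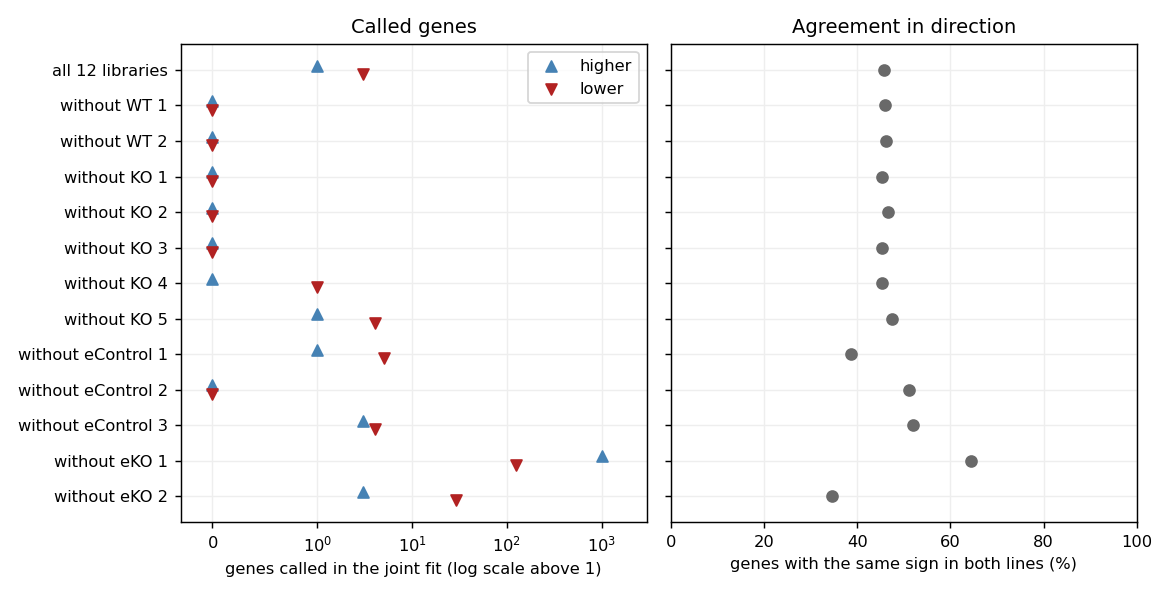
The left panel gives the number of genes called higher (triangles up) and lower (triangles down) in the joint fit with all 12 libraries and with each left out, on an axis that is logarithmic above 1. The right panel gives the percent of genes with the same sign in both lines. Counts run from 0 to 1134, and the 2 eKO libraries move the agreement the farthest, to 64.4% without eKO 1 and 34.6% without eKO 2.

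Among genes whose groups did not overlap in either line, 131 (0.796%) were higher in both, 65 (0.395%) were lower in both and 175 (1.06%) went opposite ways. With a 1.5-fold difference in each line as well, 7 were higher in both (0.0426%), 10 were lower in both (0.0608%) and 10 went opposite ways (0.0608%). The 7 were Nid2, Vipr2, Ankrd35, Cnnm1, Itga5, Mapk11 and Cdc7, and the 10 included Mpp6, 9130204K15Rik, Gsdmc4, Reg4, Gal3st2c, Ttc39c, St3gal5, Gm43824 and Cd7. Apart from the called genes, these were named after their values were seen, and none of them passed the joint test. Reg4, a secreted lectin of goblet and enteroendocrine lineages, stood at 10830 and 13902 RP20M in WT, at 4192, 5127, 4705, 907 and 4251 RP20M in KO, at 11263, 8513 and 7858 RP20M in eControl, and at 3046 and 5305 RP20M in eKO 1 and 2. KO 4 was the lowest of all libraries for Reg4. Gal3st2c, a galactose sulfotransferase by name, stood at 4096 and 7695 RP20M in WT, at 1403, 2381, 1984, 429 and 3072 RP20M in KO, at 3455, 4560 and 3398 RP20M in eControl, and at 759 and 2267 RP20M in eKO 1 and 2. For both genes KO 4 and eKO 1 were the lowest library of their lines. Their joint log2 differences were -1.56 ± 0.37 for Reg4 and -1.70 ± 0.42 for Gal3st2c (SE), each with an adjusted p of 0.496 (limma). On the higher side, Vipr2, a receptor for vasoactive intestinal peptide, stood at 214 and 159 RP20M in WT, 247 to 418 RP20M in KO, 134 to 161 RP20M in eControl, and 205 and 284 RP20M in eKO 1 and 2. Itga5, the fibronectin-binding integrin subunit, stood at 211 and 188 RP20M in WT, 218 to 486 RP20M in KO, 194 to 315 RP20M in eControl, and 397 and 410 RP20M in eKO 1 and 2.

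Pathway and cell type lists are given by counts, since the members were not tested as sets. Sulfate handling holds Papss2 and the sulfotransferases that use its product. Of its 21 genes tested, 1 was called (Papss2), 10 were lower in both lines and 2 were higher in both, where 17.9% of all genes tested were lower in both and 27.9% higher in both. At an unadjusted p under 0.05, 8 were lower and 1 was higher, against 2.71% lower and 5.00% higher over all genes. The median joint log2 difference of the list was -0.07, against 0.03 over all genes. Mpst, a mitochondrial sulfurtransferase that makes hydrogen sulfide, stood at 3550 and 4723 RP20M in WT, 1743 to 2501 RP20M in KO, 3887 to 5427 RP20M in eControl, and 3383 and 4170 RP20M in eKO 1 and 2. Its eKO and eControl values overlapped, while those of KO lay below WT (joint -0.66 ± 0.15 SE, limma adjusted p = 0.496). The cytosolic sulfotransferase Sult1d1 stood at 10362 and 13327 RP20M in WT, 6731 to 8198 RP20M in KO, 8650 to 10898 RP20M in eControl, and 7568 and 8199 RP20M in eKO 1 and 2, with no overlap in either line (joint -0.47 ± 0.11 SE, adjusted p = 0.496, limma). The joint median of the list was -0.20 without the library labelled eKO 2 and -0.16 without eKO 1, against 0.02 and 0.04 over all genes. By line, with all 12 libraries, it was -0.34 in the Olfr78-GFP line and -0.01 in the Vil1Cre/Olfr78fx line. In the latter it was 0.12 without the library labelled eKO 2 and -0.01 without eKO 1. The list as a whole thus moved mainly in the Olfr78-GFP line.

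Gasdermins form pores in membranes, and the Gsdmc cluster on chromosome 15 is abundant in colon epithelium. None of the 20 tested genes of the gasdermin and inflammasome list was called. At an unadjusted p under 0.05, 5 were lower and 2 higher, against 2.71% and 5.00% of all genes. Gsdmc4 stood at 11866 and 21121 RP20M in WT, at 5162, 8832, 6357, 7335 and 11161 RP20M in KO, at 25839, 24688 and 14166 RP20M in eControl, and at 10215 and 10581 RP20M in eKO 1 and 2. Both lines separated without overlap, and the joint difference was -1.04 ± 0.21 (SE, limma adjusted p = 0.470). Gsdmc2 stood at 5670 and 10503 RP20M in WT, 3115 to 6947 RP20M in KO, 6268 to 12965 RP20M in eControl, and 3981 and 5088 RP20M in eKO 1 and 2, so KO overlapped WT. Gsdmc and Gsdmc3 had joint differences of -0.78 and -0.59, with KO values overlapping WT for both. These paralogs are near copies of each other, and how reads shared between them were counted is not given in the sources used here.

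Basement membrane genes, the list that holds Nid2, had 17 genes tested. Of these, 10 were higher in both lines and 0 lower in both, where 27.9% and 17.9% of all genes were. The median joint log2 difference was 0.27, against 0.03 over all genes. Nid2 was the 1 called, and 5 genes were higher and 0 lower at an unadjusted p under 0.05, against 5.00% and 2.71% of all genes. The joint median of the list was 0.19 without the library labelled eKO 2 and 0.45 without eKO 1, against 0.02 and 0.04 over all genes. In the Vil1Cre/Olfr78fx line the median was 0.05 and 0.68 in these fits. Without the library labelled eKO 2, 5 genes were higher in both lines and 12 went opposite ways. The same sign was then held by 29.4%, against 34.6% of all genes. Without eKO 1 it was held by 70.6%, against 64.4%, so the agreement depended on eKO 2. Lama5, the laminin alpha-5 chain, stood at 112 and 116 RP20M in WT, at 315, 467, 366, 454 and 229 RP20M in KO, at 89, 290 and 514 RP20M in eControl, and at 190 and 597 RP20M in eKO 1 and 2. Its KO values were all above WT, and eKO 1 lay within the eControl values (joint 1.07 ± 0.39 SE, limma adjusted p = 0.618). Hspg2, the heparan sulfate proteoglycan perlecan, stood at 1497 and 1073 RP20M in WT, 1325 to 2608 RP20M in KO, 1183 to 1456 RP20M in eControl, and 1275 and 2116 RP20M in eKO 1 and 2. Stroma, vessel and nerve markers summed to 2418 and 4998 RP20M in WT, 2132 to 3887 RP20M in KO, 1685 to 4014 RP20M in eControl, 2424 RP20M in eKO 1 and 4824 RP20M in the library labelled eKO 2. Only the last exceeded its controls, and the part of stroma in the Nid2 and basement membrane values was not tested.

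Of the 20 genes of the polarity and MAGUK scaffold list, which holds Mpp6, 1 was called, 4 were higher in both lines and 4 lower in both, where 27.9% and 17.9% of all genes were. Mpp1, another p55 family member, stood at 743 and 851 RP20M in WT, 420 to 560 RP20M in KO, 830 to 1050 RP20M in eControl, 545 RP20M in eKO 1 and 1063 RP20M in eKO 2. The library labelled eKO 2 was thus above all eControl values and eKO 1 below them, and the joint difference was -0.51 ± 0.15 (SE, limma adjusted p = 0.570).

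The oxidase and peroxidase list had 13 genes tested and none called, with 6 higher in both lines and 1 lower in both, where 27.9% and 17.9% of all genes were. These 6 were also higher in eKO 1 and eKO 2 taken separately, a share of 46.2% against 12.4% of all genes. The median of the list was -0.02 in KO, 0.26 in eKO 1 and 0.18 in eKO 2, so the list as a whole was not higher in KO. Duox2, which makes hydrogen peroxide at the apical surface of epithelium, stood at 2378 and 2297 RP20M in WT and 3657 to 6235 RP20M in KO, and at 3722 to 4101 RP20M in eControl, 4009 RP20M in eKO 1 and 6532 RP20M in eKO 2. Its maturation factor Duoxa2 stood at 176 and 218 RP20M in WT, 295 to 454 RP20M in KO, 367 to 576 RP20M in eControl, and 575 and 579 RP20M in eKO 1 and 2. KO exceeded WT for both genes without overlap, and eKO 1 lay within the eControl range for both. Joint differences were 0.73 ± 0.16 for Duox2 and 0.64 ± 0.16 for Duoxa2 (SE, both with a limma adjusted p of 0.496).

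Heat shock and immediate early genes, which respond to stress and to tissue handling, had 27 tested and 0 called. At an unadjusted p under 0.05, 8 were lower and 0 higher, against 2.71% and 5.00% of all genes, and 13 were lower in both lines and 1 higher in both, against 17.9% and 27.9% of all genes. Hspa1b, an inducible HSP70, stood at 6924 and 3999 RP20M in WT and at 845, 2462, 1246, 834 and 1338 RP20M in KO. In the other line it stood at 357, 1194 and 833 RP20M in eControl, 213 RP20M in eKO 1 and 415 RP20M in eKO 2, so the library labelled eKO 2 overlapped the eControl values. The WT values were the highest of the 12 and the eControl values were in the range of KO or below (joint -1.69 ± 0.34 SE, limma adjusted p = 0.470). Summed over the list, WT crypts held 129376 and 102016 RP20M and the other 10 libraries 71718 to 92518 RP20M. The part of this in the results was not tested.

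Markers of other cells were given the same reading. Of 19 leukocyte genes tested, 9 were lower in both lines and 4 higher in both, where 17.9% and 27.9% of all genes were. None was called, and 6 were lower and 0 higher at an unadjusted p under 0.05, against 2.71% and 5.00% of all genes. Their sum was 1830 and 1648 RP20M in WT, 953 to 1464 RP20M in KO, 1184 to 2958 RP20M in eControl, and 1585 and 1822 RP20M in eKO 1 and 2, so KO lay below WT and the other line overlapped. Ptprc, the leukocyte antigen CD45, stood at 413 and 374 RP20M in WT, 162 to 340 RP20M in KO, 475, 460 and 213 RP20M in eControl, and 197 and 217 RP20M in eKO 1 and 2. Epithelial markers summed to 152869 and 159193 RP20M in WT and 129766 to 149341 RP20M in KO, and to 174534 to 197635 RP20M in eControl and 200357 and 205761 RP20M in eKO 1 and 2. The groups did not overlap but moved opposite ways in the lines. The part of leukocyte RNA in Mpp6, Papss2, 9130204K15Rik and Nid2 was not tested.

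Olfr78 is carried by endocrine cells, and none of the genes in their lists was called. Of 9 enterochromaffin genes (the serotonin-producing cells), 5 were lower in both lines and 2 were higher in both, so 77.8% had the same sign, against 45.8% of all genes. Without the library labelled eKO 2, 3 were lower and 2 higher in both lines, and without eKO 1, 5 were lower and 2 higher. At an unadjusted p under 0.05 with all 12 libraries, 1 was lower and 0 were higher, against 2.71% and 5.00% of all genes. Chgb, a granule protein, stood at 7646 and 4210 RP20M in WT, 2784 to 5109 RP20M in KO, 2956 to 4797 RP20M in eControl, and 3447 and 2971 RP20M in eKO 1 and 2, with overlap in both lines (joint -0.49 ± 0.19 SE, limma adjusted p = 0.618). Tph1, the rate-limiting enzyme of serotonin synthesis, stood at 2530 and 1365 RP20M in WT and 1112 to 2281 RP20M in KO, and at 846 to 1269 RP20M in eControl and 1058 and 879 RP20M in eKO 1 and 2. The joint difference for Tph1 was -0.17 ± 0.20 (SE). Of 5 L cell genes, 0 had the same sign in both lines, and Pyy, the hormone of those cells, had a joint difference of 0.04 ± 0.18 (SE). Of 14 tuft cell genes, none was called, and 6 were lower in KO, in eKO 1 and in eKO 2 alike, a share of 42.9% against 6.25% of all genes. The other 8 went opposite ways in the lines. The median of the list was 0.10 in KO, -0.60 in eKO 1 and -0.30 in eKO 2, so the list as a whole was not lower in KO. The neighbouring receptor gene Olfr558 did not pass the filter, with 56 and 32 RP20M in WT, 5 to 17 RP20M in KO, 4 to 34 RP20M in eControl, and 23 and 21 RP20M in eKO 1 and 2. Its KO values lay below WT, while the eKO values lay within those of eControl.

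Among antimicrobial and acute phase genes, 24 were tested and none called. Of these, 9 were lower in both lines and 4 higher in both, where 17.9% and 27.9% of all genes were. At an unadjusted p under 0.05 (limma), 3 were lower and 1 was higher, against 2.71% and 5.00% of all genes. The median joint log2 difference was -0.08, against 0.03 over all genes. The 1 higher was Reg3g, so it went against most of the list. Reg3g, a bactericidal lectin, stood at 813 and 829 RP20M in WT, at 785, 1017, 2041, 2196 and 1689 RP20M in KO, at 1657, 1694 and 1846 RP20M in eControl, 2842 RP20M in eKO 1 and 6980 RP20M in the library labelled eKO 2. KO 1 was below both WT values and the 2 eKO values were above all eControl values (joint 1.05 ± 0.27 SE, limma adjusted p = 0.496). The other lists (stem cell, cell division, colonocyte, goblet and mucus, lipid uptake, cytochrome P450, interferon-stimulated, circadian clock, and Hox and regional identity) had no gene called, and their medians in KO, eKO 1 and eKO 2 are drawn in the plot of list medians. Cell division shows the split of the eKO libraries, with a median of -0.08 in KO, 0.49 in eKO 1 and -0.13 in eKO 2. Interferon-stimulated genes did so the other way, with a median of 0.04 in KO, -0.28 in eKO 1 and 0.61 in eKO 2.

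**Figure D5:**
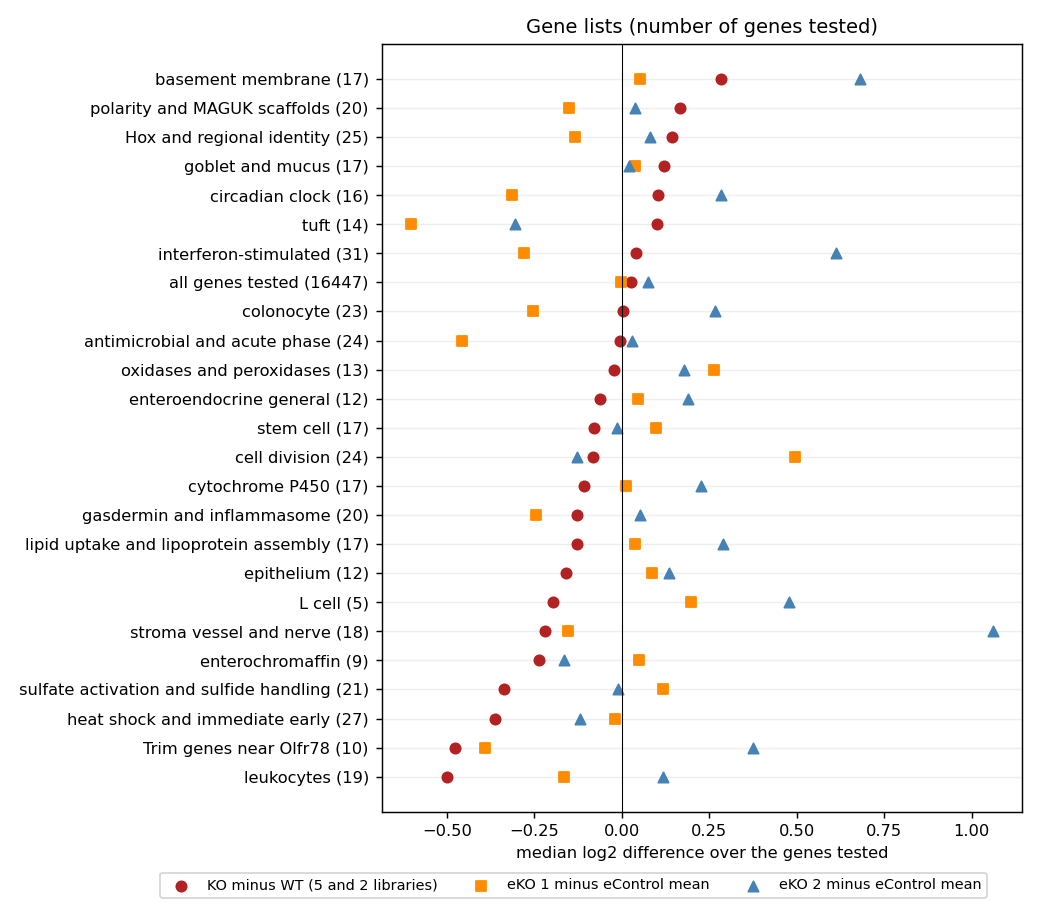
Each row is a gene list with its number of genes tested, and the x axis is the median log2 difference over those genes. Circles are KO minus WT in the Olfr78-GFP line, squares eKO 1 minus the eControl mean and triangles eKO 2 minus the eControl mean. For stroma, interferon-stimulated and cell division genes the squares and triangles lie on opposite sides of 0, and no list has all 3 medians beyond 0.2 in the same direction.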

How the data were processed

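The analysis used 12 libraries of colon crypts, 1 mouse each, grouped by their titles, and the 6 sorted-cell libraries for levels only. The members and gene lists were chosen with earlier results of these data known. Per the methods, the authors aligned the reads with STAR (GRCm38) and assigned them to Ensembl genes with HTSeq, and settings for strand are not given in the sources used here. For the crypts the authors deposited a score per gene, its reads brought to a library total of 20000000 and rounded up to whole numbers, and for the sorted cells a signal made the same way. Both tables list the same 52636 genes. Whole reads were recovered from 99.84% to 99.97% of the crypt values, giving 6175306 to 10995322 reads on genes, where 3 reads were worth 5.46 to 9.72 RP20M. Such floors cover counting error only.

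The test was limma with a mean-variance trend (limma 3.58.1, R 4.3.3) on log2(value + 10), which understates the fold of low genes, with the line as covariate and Benjamini-Hochberg adjustment over all genes tested. The joint fold weights the Olfr78-GFP line by 54.3%. Calls needed an adjusted p of at most 0.2 and a 1.5-fold difference, the thresholds of the study's own methods. The study applied them with edgeR, so the limma counts given here are not those of the study's own test. Each line and their difference came from a fit with 4 groups. Tests of counts on the recovered reads (edgeR 4.0.16, DESeq2 1.42.0) were alternatives. The scripts were tested on simulated data. Genes named by rule were those called in the joint fit, Olfr78, Olfr558, called members of the lists and the 5 genes whose lines differed most. All others, including the examples shown from the lists, are to be read as named after their values were seen. In GENCODE M21 (GRCm38) 52489 genes had an entry, and promoter sequences are from RefSeq (GRCm38.p6). P-values measure the spread between these mice. Results for some genes are not reported here.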

Additional observations from a re-analysis of the deposited data

Results flagged for a closer look

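The lines differed in their genotype effect (eKO minus eControl, less KO minus WT) past the threshold for 5 genes of chromosome 7, by limma's test of that difference. They lie 1502 to 3332 kb from Olfr78, the gene targeted in both lines. The strain name of the Olfr78-GFP line gives 129P2 as a parent strain, and an effect of DNA linked to the targeted allele and an effect of losing Olfr78 cannot be told apart in that line. Gm8979, an unprocessed pseudogene, stood at 9603 and 9412 RP20M in WT, 62 to 173 RP20M in KO, 5526, 10221 and 9320 RP20M in eControl, and 6010 and 8853 RP20M in eKO 1 and 2, a difference of 6.26 ± 0.49 (log2, SE, adjusted p = 8.62e-05). KO was thus at 0.0116 of WT, while eKO lay within eControl.

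For Trim12a, a member of the TRIM family of antiviral proteins, the difference was 4.45 ± 0.44 (SE, limma adjusted p = 0.000750), with 269 and 360 RP20M in WT, 3 to 13 RP20M in KO and 318 to 554 RP20M in the other line. For Trim30d it was 3.38 ± 0.51 (SE, limma adjusted p = 0.0703), with 392 and 292 RP20M in WT, 12 to 34 RP20M in KO and 337 to 795 RP20M in the other line. AC123830.1, an antisense transcript over Trim34a, differed by 2.72 ± 0.43 (SE, limma adjusted p = 0.0879), with 54 and 68 RP20M in WT and 0 to 3 RP20M in KO, and Gm27149, a pseudogene beside Gm8979, by 2.45 ± 0.43 (SE, limma adjusted p = 0.176). Trim genes and these pseudogenes belong to families of near copies, so their split of reads is uncertain. Dixon's test (gap over range, critical value 0.71) looked for an outlying library among the 5 KO mice, for the 11 genes named by rule only. None passed it, and Trim12a in KO 2 came closest at 0.7. Reg4, with 907 RP20M in KO 4, was not among the genes tested.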

How the results depend on the processing

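The direction of Mpp6, Papss2, 9130204K15Rik and Nid2 was the same in each of 26 alternatives, and the joint call held in 17, 17, 15 and 13 of them. Over the alternatives the joint log2 difference ran from -1.20 to -0.91 for Mpp6, from -0.82 to -0.56 for Papss2, from -1.87 to -1.19 for 9130204K15Rik and from 0.58 to 0.82 for Nid2, with adjusted p from 0.0157 to 1 for Nid2 (limma, edgeR and DESeq2). The joint count of 4 (1 higher, 3 lower, 4 agreeing in direction) became 0 in limma without the trend (0 higher, 0 lower, 0 agreeing, with 1261 genes at an unadjusted p under 0.05) and 0 at an adjusted p of at most 0.05 (0 higher, 0 lower, 0 agreeing). It became 9 in edgeR (3 higher, 6 lower, 8 agreeing) and 38 in DESeq2 (17 higher, 21 lower), and both held the 4 genes. With no filter on low values 0 genes were higher, 76 were called in the Olfr78-GFP line and 3 differed between the lines, and with a pseudocount of 1, 3 differed. Without the covariate for the line 0 were higher. The Olfr78-GFP line fitted alone gave 1574 genes against 634. With the library labelled eKO 2 grouped by its genotype label, 33 genes were called (2 higher, 31 lower, 33 agreeing), 33.3% of genes had the same sign, and 1224, 707 and 4065 genes were called in the Olfr78-GFP line, the other line and their difference. Without both libraries of label WT/HO, chosen after seeing the data, 30 genes were called (2 higher, 28 lower, 30 agreeing), 36.0% had the same sign, and the counts were 1249, 21 and 2135. The cause was not tested for any of these.

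Leaving out each library in turn gave 0 to 1134 joint calls, 0 to 1008 higher and 0 to 126 lower, 0 to 1088 agreeing, and 34.6% to 64.4% of genes with the same sign. The Olfr78-GFP line had 9 (without WT 2) to 1303 (without eKO 1) calls, the Vil1Cre/Olfr78fx line 0 to 50 (without eKO 2), and their difference 2 (without WT 2) to 3298 (without eKO 2). Mouse numbers are shared between groups by label only. Deviations from the group mean of mice with the same number correlated at 0.06 and -0.09 in the Olfr78-GFP line and at 0.57 and 0.35 in the other. With the number as a replicate block, 27 genes were called (9 higher, 18 lower, 27 agreeing), 3 of them among the 4, and 1148, 46 and 50 in the lines and their difference. With 2 WT and 2 eKO libraries, a group's spread rests on few mice, and 9130204K15Rik rests on 5 to 92 reads and Nid2 on 32 to 126 reads a library.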
